A study of Mus musculus with 36 samples.

Results

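The Fc receptors for immunoglobulin G (IgG) were followed across mouse bone marrow monocytes and the macrophages and dendritic cells grown from them. The 6 genes were Fcgr1, Fcgr4, Fcgr3, Fcgr2b, Fcer1g and Fcgrt, found as every array probe whose gene name was one of these symbols or an older alias of Fcgr4. This gave 11 probes of 41174 on the array, and all 6 genes were among the 17606 genes tested. All 11 probes were well above background on 36 of 36 arrays, so no level below is a bound.

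RNA was read on 1-colour arrays, 3 for each of 12 groups. The starting cells were monocytes sorted from bone marrow as CD11b+ Ly6C+ Ly6G-, and they were also measured uncultured (Monocytes). Cultured groups were kept for 7 days with the stimulus in the last 24 h, all in 10% fetal calf serum. M0 (no stimulus), IFNg_Mphi (25 ng/ml interferon-γ, IFN-γ), M1 (25 ng/ml IFN-γ with LPS, given in the labels as 100 µg/ml), M2a (20 ng/ml IL-4), M2b (25 ng/ml IFN-γ on dishes coated with 1 mg/ml human immunoglobulin) and M2c (dexamethasone) had 20 ng/ml macrophage colony-stimulating factor (M-CSF). The dendritic cells (Mo-DC) were grown with 20 ng/ml GM-CSF and 20 ng/ml IL-4, and they too received 25 ng/ml IFN-γ in the last 24 h. The 4 regulatory macrophage (Mreg) groups had 5 ng/ml M-CSF and, in addition, 10% human AB serum, which itself carries human IgG. Mreg received 25 ng/ml IFN-γ, Mreg_LPS received IFN-γ with LPS as in M1, and Mreg_noIFNg received neither. Mreg_unpurified was treated like Mreg but began from unsorted adherent mononuclear cells of bone marrow, spleen and blood. Nothing in the labels tells whether a group's 3 arrays stand for different animals or cultures. The p-values therefore cover no more than the spread among these samples, which may be technical.

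Fc receptors let myeloid cells bind antibody-coated targets and take them up. FcγRI (Fcgr1), which binds monomeric IgG tightly, FcγRIII (Fcgr3) and FcγRIV (Fcgr4) are activating and depend on the shared signalling chain encoded by Fcer1g, whose activation motif recruits the kinase Syk. FcγRIIb (Fcgr2b) carries an inhibitory motif that recruits the phosphatase encoded by Inpp5d, so the relation of the activating receptors to FcγRIIb is a textbook measure of how readily immune complexes stimulate a macrophage. FcRn, whose heavy chain is encoded by Fcgrt and which pairs with β2-microglobulin, works inside endosomes, where it returns IgG to the surface instead of letting it be degraded.

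The stretches upstream of the 4 receptor genes called with IFN-γ in both culture systems are shown first, those of 3 genes that rose (Fcgr1, Fcgr4 and Fcgr3) and of 1 that fell (Fcgr2b). They are the 250 bases before the RefSeq start in the build GRCm38.p6, read 5′ to 3′ on the gene's strand. Capitals mark a match to TTCNNNGAA, the consensus of the γ-activated sequence (GAS), or to the core of interferon response elements, searched as GAAA, any pair of bases, and GAAA again. Both motifs were searched on both strands, and both were chosen after these sequences had been looked at.
Fcgr1 (chr3:96293970-96294219, minus strand): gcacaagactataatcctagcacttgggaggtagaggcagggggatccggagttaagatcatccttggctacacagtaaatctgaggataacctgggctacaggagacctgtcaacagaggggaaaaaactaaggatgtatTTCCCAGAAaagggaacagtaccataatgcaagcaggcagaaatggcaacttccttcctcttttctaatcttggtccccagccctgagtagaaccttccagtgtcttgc
Fcgr4 (chr1:171018676-171018925, plus strand): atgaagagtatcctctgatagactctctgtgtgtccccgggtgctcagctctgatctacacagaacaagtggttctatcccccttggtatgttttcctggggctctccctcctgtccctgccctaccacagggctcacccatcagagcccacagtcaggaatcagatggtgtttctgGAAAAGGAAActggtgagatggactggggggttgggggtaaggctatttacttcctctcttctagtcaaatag
Fcgr3 (chr1:171059404-171059653, minus strand): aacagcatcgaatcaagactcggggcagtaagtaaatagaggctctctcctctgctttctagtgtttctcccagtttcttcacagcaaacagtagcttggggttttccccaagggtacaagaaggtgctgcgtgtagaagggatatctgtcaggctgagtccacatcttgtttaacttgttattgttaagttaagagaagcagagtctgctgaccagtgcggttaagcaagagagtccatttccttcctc
Fcgr2b (chr1:170976072-170976321, minus strand): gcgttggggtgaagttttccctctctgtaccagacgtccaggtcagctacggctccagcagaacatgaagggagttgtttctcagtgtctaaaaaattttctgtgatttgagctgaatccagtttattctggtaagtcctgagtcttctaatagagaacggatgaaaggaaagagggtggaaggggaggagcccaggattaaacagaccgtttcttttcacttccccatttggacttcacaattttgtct

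The Fcgr1 stretch held TTCCCAGAA at positions −109 to −101 counted from the start, and the Fcgr4 stretch held GAAAAGGAAA at −73 to −64. Neither pattern was found in the windows of the other 4 genes, Fcgr3 and Fcgr2b among them. All 6 genes matched an entry of the RefSeq table. Of 32851 promoter windows of this length, 7.02% held the first pattern and 2.98% the second. These matches describe the letters only.

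Probe sequences are shown for 2 probes whose readings matter below, the second probe of Fcgr3, which differed from the first, and the only probe of Fcgrt. Coordinates are those of the deposited files, in the build mm8.
Fcgr3, probe 2 (chr1:172890673-172890732, minus strand): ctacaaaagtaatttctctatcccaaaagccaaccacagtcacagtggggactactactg
Fcgrt, only probe (chr7:44963228-44963287, minus strand): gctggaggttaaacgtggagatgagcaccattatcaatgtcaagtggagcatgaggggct

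Each level is a log2 signal from which the array's own 75th percentile was taken away, and the values of a group are listed in the order of the replicate numbers 1, 2 and 3. A level can be compared between groups but not between probes. Per array, 50.1 to 57.6% of probes exceeded background clearly, and the 75th percentile of signal lay between 320.0 and 648.2. The arrays lay on 9 slides, and the scans of number 1 were made on another day than those of numbers 2 and 3. The comparisons of M0 with monocytes, M2a with M0, M2b and Mo-DC with IFNg_Mphi, and those among the 4 Mreg groups were made within slides, while the others crossed slides. Of the genes used as checks of the labels, Irf1, Gbp2 and Ciita rose with IFN-γ, Il12b and Ptgs2 with LPS, Arg1 with IL-4, and Fkbp5 with dexamethasone. Il6, Retnla, Chil3, Tsc22d3 and Cd163 were also on the check list and are not described here. Ptgs2 was not particular to LPS, since it also rose with IFN-γ in the Mreg cultures, at least 7.82-fold (adjusted p = 6.3e-06 in limma). Marker signals were summed before the log2 was taken, so the brightest genes of a list weigh most. Summed macrophage markers (7 of 7 measured) lay between 9.56 and 10.8 on every array. In the monocytes, the summed neutrophil markers (5 of 6 have a probe) lay between 10.8 and 11.2, against −4.41 to 2.35 in all cultured groups, and mast cell and basophil markers (4 of 4) between 3.53 and 4.01, against −5.47 to 0.096. In bulk RNA, fewer cells of a type and less RNA per cell cannot be told apart.

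All 6 genes differed among the 12 groups in limma's F test, as did 92.6% of all genes tested. Fcgr2b spanned 54.0-fold between its highest and lowest group mean, Fcgr4 33.6-fold, Fcgr1 12.8-fold, Fcgrt 8.11-fold, Fcer1g 4.89-fold and Fcgr3 4.34-fold. The median gene spanned 1.98 on the log2 scale. A smaller span than that of Fcgr2b was found for 92.6% of genes, than that of Fcgr4 for 89.7%, than that of Fcgr1 for 79.7%, than that of Fcgrt for 71.5%, than that of Fcer1g for 58.0% and than that of Fcgr3 for 53.9%. The inhibitory receptor and FcγRIV thus had the widest spans of the members, and the span of Fcgr3 stood near the middle of all genes.

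**Figure D1:**
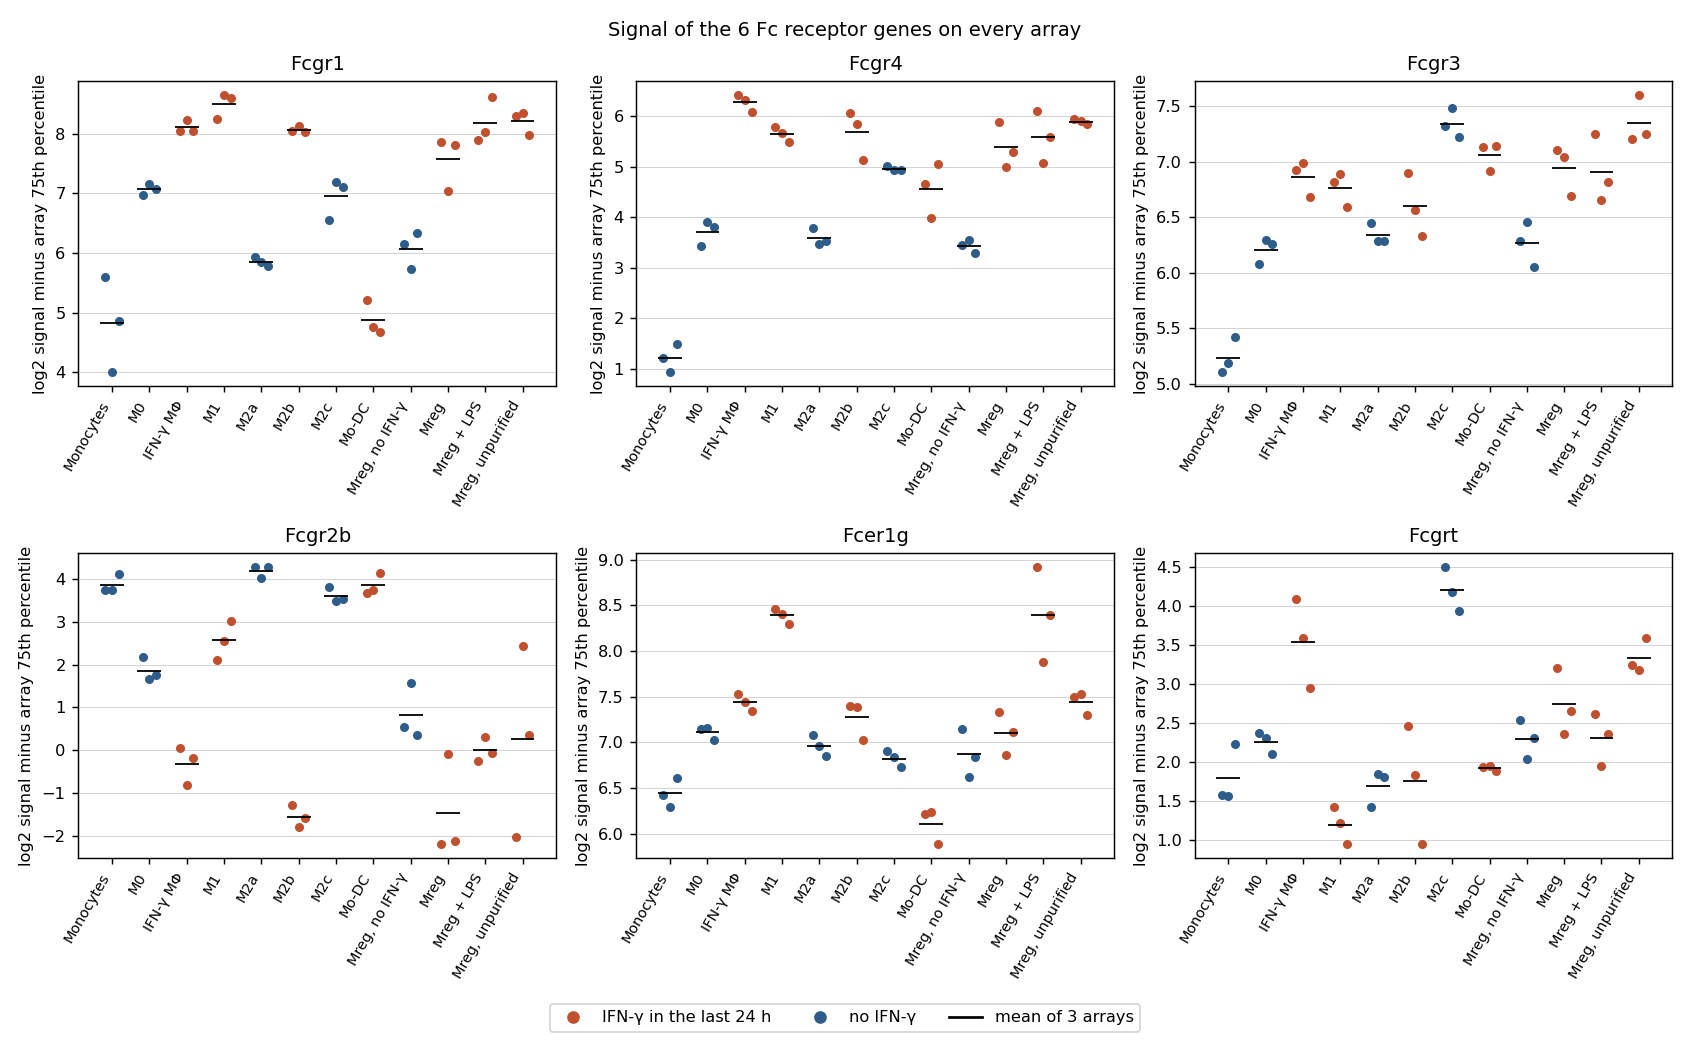
Each panel plots one gene's level, in log2 units relative to the array's 75th percentile, for the 12 groups on the horizontal axis; points are single arrays and bars are means of 3. Orange marks groups given IFN-γ in the last 24 h and blue the others. Fcgr4 lies between 3.98 and 6.43 in the orange groups and, apart from M2c, at or below 3.91 in the blue ones.

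The order of the group means differed between genes. Fcgr1 was highest in M1 (8.50 ± 0.21 SD, n = 3) and lowest in the monocytes (4.82 ± 0.80). Its first 5 groups, M1, Mreg_unpurified, Mreg_LPS, IFNg_Mphi and M2b, all had IFN-γ, and each overlapped the next in that order. The arrays of M2b and Mreg, of M2c and Mreg_noIFNg, and of M2a and Mo-DC were the only neighbours in the order that did not overlap.

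Fcgr4, whose product binds IgG2a and IgG2b complexes, was highest in IFNg_Mphi (6.28 ± 0.17 SD, n = 3) and lowest in the monocytes (1.21 ± 0.28). Its arrays showed gaps below IFNg_Mphi, between Mo-DC and M0, and above the monocytes. The other 8 of 11 neighbouring pairs overlapped. Fcgr3 was highest in Mreg_unpurified (7.35 ± 0.22) and M2c (7.34 ± 0.13) and lowest in the monocytes (5.23 ± 0.16), and 9 of its 11 neighbouring pairs overlapped.

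Fcgr2b had another order. It was highest in M2a (4.20 ± 0.15 SD, n = 3), the monocytes (3.87 ± 0.21), Mo-DC (3.86 ± 0.26) and M2c (3.61 ± 0.17), and each of these groups overlapped its neighbour. M1 followed at 2.56 ± 0.45 and M0 at 1.86 ± 0.27. The lowest means were those of IFNg_Mphi (−0.31 ± 0.44), Mreg (−1.47 ± 1.19) and M2b (−1.55 ± 0.26). The spread was uneven, since Mreg_unpurified ran from −2.02 to 2.43.

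Fcer1g was highest in Mreg_LPS (8.40 ± 0.52 SD, n = 3) and M1 (8.39 ± 0.087), the groups with LPS, with a gap to all others. It was lowest in Mo-DC (6.11 ± 0.20), below the monocytes (6.44 ± 0.15). Fcgrt was highest in M2c (4.21 ± 0.28) and IFNg_Mphi (3.54 ± 0.57), whose arrays overlapped, and lowest in M1 (1.19 ± 0.24).

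Over the 12 group means, given as a description, Fcgr1 ran with Fcgr4 (r = 0.82) and Fcer1g (r = 0.84), and Fcgr3 with Fcgr4 (r = 0.85). Fcgr2b ran against Fcgr1 (r = −0.69) and Fcgr4 (r = −0.60). Fcgrt was not close to any other member, its largest r being 0.54, with Fcgr3. The groups share culture steps and slides and are not independent.

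Whether IFN-γ shifts the receptors was asked in 2 culture systems, by Mreg against Mreg_noIFNg and by IFNg_Mphi against M0. In the Mreg cultures Fcgr4, Fcgr1 and Fcgr3 rose and Fcgr2b fell. Of the 6 genes, 3 were called higher, against 9.51% of all genes, and 1 lower, against 10.9%. In the M-CSF macrophages the same 3 activating receptors and Fcgrt rose and Fcgr2b fell, giving 4 higher, against 11.1% of all genes, and 1 lower, against 11.1%.

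Fcgr4 read 3.46, 3.55 and 3.29 in Mreg_noIFNg and 5.89, 5.00 and 5.30 in Mreg. In M0 it read 3.44, 3.91 and 3.81, and in IFNg_Mphi 6.43, 6.33 and 6.09. Every array with IFN-γ lay above every array without it in both systems. The log2 difference was 1.96 ± 0.26 (SE) in the Mreg cultures, a 3.90-fold rise (limma, adjusted p = 2.4e-06), and 2.56 ± 0.26 in the M-CSF macrophages, a 5.90-fold rise (adjusted p = 2e-08).

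Fcgr1 read 6.15, 5.73 and 6.34 in Mreg_noIFNg and 7.87, 7.03 and 7.81 in Mreg. It read 6.97, 7.16 and 7.07 in M0 and 8.04, 8.23 and 8.05 in IFNg_Mphi. The groups did not overlap within either system. The rise was 2.82-fold in the Mreg cultures (log2 1.5 ± 0.27 SE, adjusted p = 2e-04 in limma) and 2.05-fold in the M-CSF macrophages (1.04 ± 0.27, adjusted p = 0.006).

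Fcgr3, the widely shared activating receptor, read 6.29, 6.45 and 6.05 in Mreg_noIFNg, 7.10, 7.04 and 6.69 in Mreg, 6.07, 6.29 and 6.26 in M0 and 6.92, 6.99 and 6.68 in IFNg_Mphi, without overlap. The rises were 1.60-fold (log2 0.68 ± 0.16 SE, adjusted p = 0.0025 in limma) and 1.58-fold (0.66 ± 0.16, adjusted p = 0.0028). On the arrays of numbers 2 and 3 alone, scanned on one day, the adjusted p was 0.052 in the Mreg cultures and 0.059 in the M-CSF macrophages, and in a fit of the compared groups alone it was 0.051 in the Mreg cultures. The second Fcgr3 probe, whose sequence is given above, read 0.37 ± 0.16 (adjusted p = 0.12) and 0.32 ± 0.16 (adjusted p = 0.19), so the call rests on the first probe.

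Fcgr2b read 0.55, 1.57 and 0.34 in Mreg_noIFNg and −2.20, −0.10 and −2.12 in Mreg. It read 2.17, 1.66 and 1.76 in M0 and 0.05, −0.80 and −0.18 in IFNg_Mphi. All arrays with IFN-γ lay below those without it in the same system, although number 2 was the highest array in both Mreg groups. Fcgr2b was 4.91-fold lower with IFN-γ in the Mreg cultures (log2 −2.30 ± 0.62 SE, adjusted p = 0.0089 in limma) and 4.51-fold lower in the M-CSF macrophages (−2.17 ± 0.62, adjusted p = 0.011).

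The Fcgr2b call depended on single arrays. The SE of Fcgr2b rests on a spread pooled over all 12 groups, of which Mreg_unpurified had the widest (SD 2.23). In the Mreg cultures the adjusted p was 0.066 without Mreg 1, 0.054 without Mreg 3, 0.06 without Mreg_noIFNg 2 and 0.079 in a fit of the compared groups alone. In the M-CSF macrophages it was 0.059 without IFNg_Mphi 2. The direction was kept under all 17 alternatives in both systems, and the 3 probes of Fcgr2b gave the same calls. Of the markers of other cells, the Ly6C-high monocyte sum (4 of 5 measured) was 5.68 to 5.96 in IFNg_Mphi against 3.13 to 3.51 in M0. The dendritic cell sum was lower in IFNg_Mphi (2.77 to 4.33 against 4.77 to 5.72). So were the B cell sum (−0.91 to −0.82 against 0.004 to 0.077) and the T and NK cell sum (−2.73 to −2.40 against −2.30 to −2.11). The mast cell and basophil sum was higher (−3.70 to −3.53 against −4.86 to −3.95), and the neutrophil sums overlapped. All of these sums overlapped between Mreg and Mreg_noIFNg, the Ly6C-high monocyte sum at 0.65 to 2.66 and 1.94 to 4.25. Their part in the IFN-γ differences was not tested.

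Fcer1g did not pass in either system (log2 0.23 ± 0.18 SE, adjusted p = 0.41, and 0.33 ± 0.18, adjusted p = 0.21 in limma). Fcgrt read 2.37, 2.31 and 2.10 in M0 and 4.09, 3.59 and 2.95 in IFNg_Mphi, a 2.43-fold rise (log2 1.28 ± 0.30, adjusted p = 0.0019). In the Mreg cultures Fcgrt differed by 0.45 ± 0.30 (adjusted p = 0.34), and the groups overlapped. B2m, the partner chain of FcRn and of MHC class I, rose 2.45-fold in the Mreg cultures (adjusted p = 9.7e-07) and 1.74-fold in the M-CSF macrophages (adjusted p = 4.4e-04).

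The difference between the 2 IFN-γ responses was tested directly, as an interaction in limma, and 0 of the 6 genes passed, 0 of 6 also at an unadjusted p under 0.05. Of all genes, 1.19% had a larger response in the Mreg cultures and 0.460% a smaller one. The 95% intervals of the difference were wide for Fcgr2b (−1.94 to 1.69) and ran from −1.70 to 0.028 for Fcgrt, from −1.35 to 0.15 for Fcgr4, from −0.34 to 1.26 for Fcgr1, from −0.44 to 0.49 for Fcgr3 and from −0.61 to 0.42 for Fcer1g. Fcgrt, called in one system and not in the other, is therefore not shown to differ between them.

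**Figure D2:**
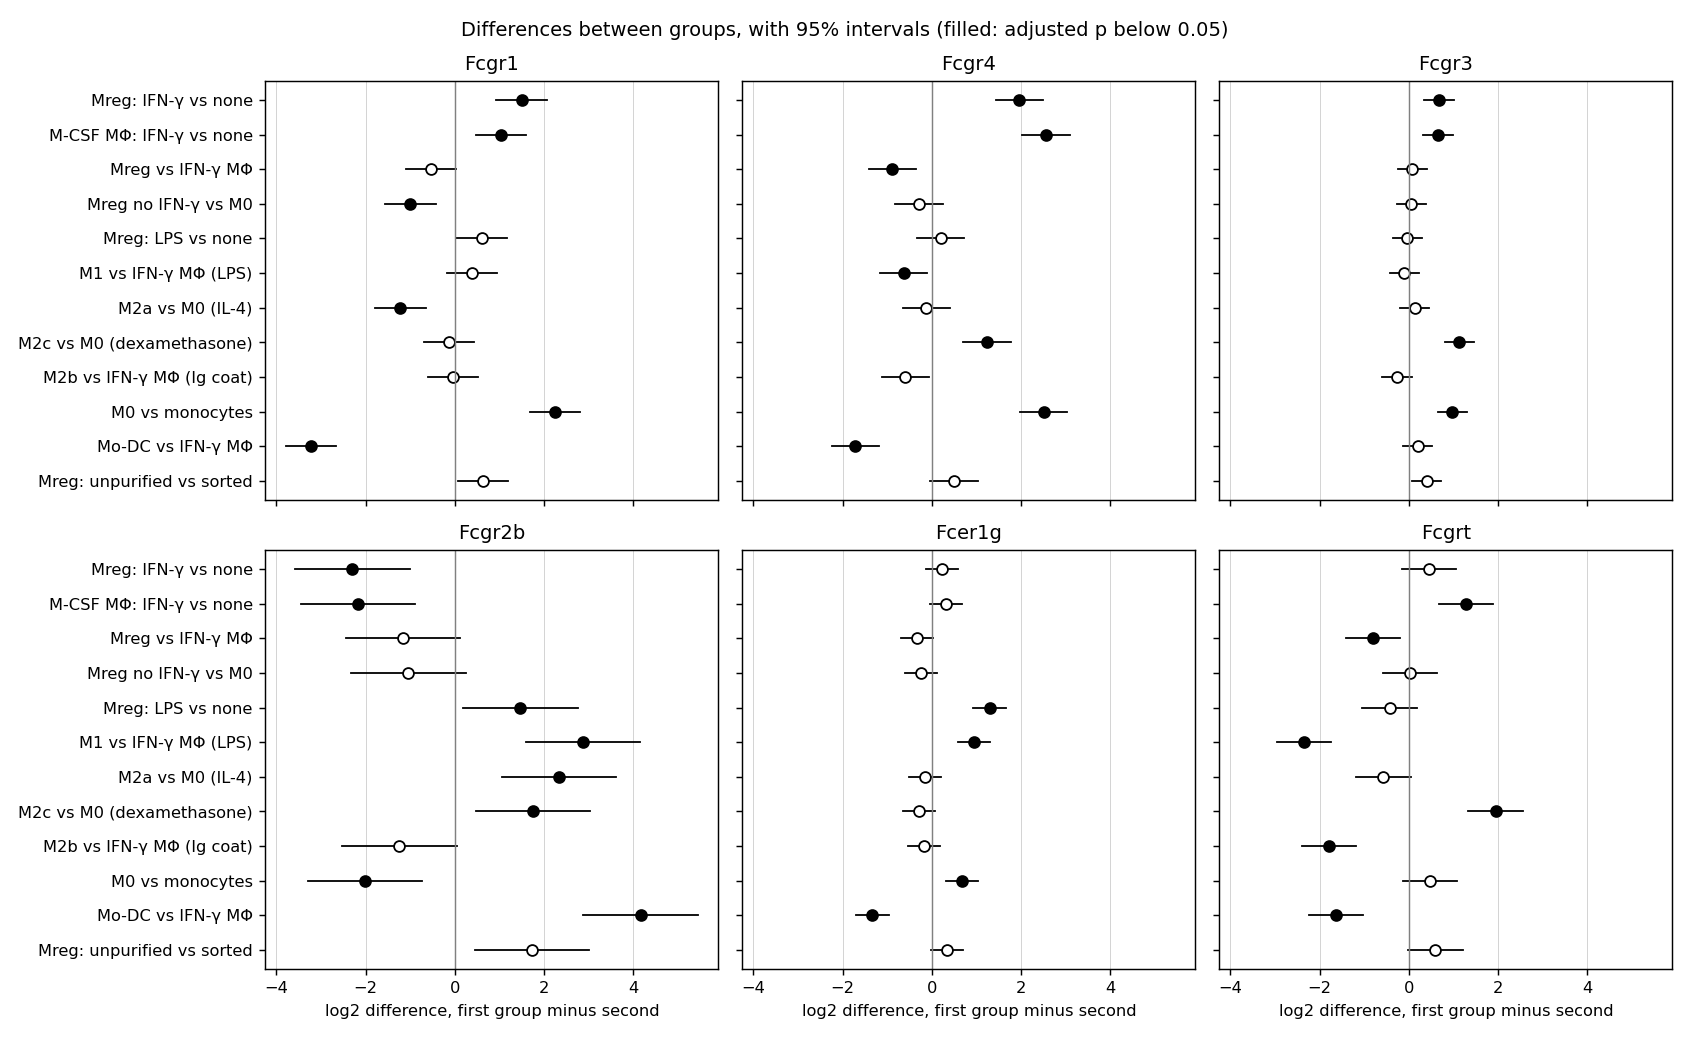
Each panel plots one gene's log2 difference (horizontal axis) for 12 comparisons of groups, with the 95% interval as a line; filled points have an adjusted p below 0.05 in limma. Fcgr2b has the widest intervals and spans −2.30 to 4.17, and Fcgr3 keeps within −0.26 to 1.13.

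LPS on top of IFN-γ was compared in Mreg_LPS against Mreg and in M1 against IFNg_Mphi. Fcer1g and Fcgr2b rose in both systems, and Fcgr4 and Fcgrt fell in the M-CSF macrophages. In Mreg, 2 of 6 genes were higher, against 31.9% of all genes, and 0 lower, against 25.5%. In the macrophages 2 were higher, against 27.9%, and 2 lower, against 23.3%, so the counts of higher members lay near the share of all genes. The median of all genes shifted by 0.17 in Mreg and 0.12 in the macrophages. Quantile normalization moved Fcer1g, Fcgr1 and Fcgr3 by more than that in both systems, as given below. The size of the LPS differences therefore depends on the scaling. Before scaling, the 75th percentile of signal was 320 to 343 in Mreg_LPS and 441 to 579 in Mreg. It was 413 to 436 in M1 and 541 to 589 in IFNg_Mphi. The Ly6C-high monocyte marker sum was 4.73 to 5.13 in M1 against 5.68 to 5.96 in IFNg_Mphi, and overlapped between Mreg_LPS (0.87 to 2.34) and Mreg (0.65 to 2.66). Its part was not tested.

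Fcer1g, the common signalling chain, read 7.34, 6.86 and 7.11 in Mreg and 8.92, 7.88 and 8.39 in Mreg_LPS. In IFNg_Mphi it read 7.53, 7.44 and 7.34, and in M1 8.46, 8.41 and 8.29. The LPS arrays lay above the others in both systems. The rise was 2.46-fold in Mreg (log2 1.30 ± 0.18 SE, adjusted p = 4.8e-07 in limma) and 1.93-fold in the macrophages (0.95 ± 0.18, adjusted p = 5.7e-05). Quantile normalization, which forces the arrays to one distribution, lowered these log2 values to 0.60 and 0.41, both still called.

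Fcgr2b read −0.80 to 0.05 in IFNg_Mphi and 2.12, 2.55 and 3.03 in M1. It was 7.34-fold higher in M1 (log2 2.88 ± 0.62 SE, adjusted p = 3.6e-04 in limma), without overlap and under all 17 alternatives. In Mreg_LPS it read −0.25, 0.30 and −0.06 against −2.20, −0.10 and −2.12 in Mreg. Number 2 of Mreg lay among the LPS arrays, so the groups overlapped. That difference (1.47 ± 0.62, 2.77-fold, adjusted p = 0.046) lost its call under 9 of 17 alternatives, among them the omission of Mreg 1 (adjusted p = 0.18), Mreg 3 (0.18), Mreg_LPS 1 (0.063), Mreg_LPS 2 (0.12) or Mreg_LPS 3 (0.077).

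Fcgrt was the member whose LPS response was called different between the 2 systems. It read 4.09, 3.59 and 2.95 in IFNg_Mphi and 1.42, 1.21 and 0.94 in M1, a 5.11-fold fall (log2 −2.35 ± 0.30 SE, adjusted p = 2.1e-07 in limma). In Mreg it read 3.21, 2.36 and 2.65, and in Mreg_LPS 2.62, 1.95 and 2.36. The arrays of M1 all lay below those of IFNg_Mphi, while those of Mreg and Mreg_LPS overlapped, and the Mreg difference did not pass (−0.43 ± 0.30, adjusted p = 0.22). Paired by number, the fall in the macrophages was 2.67, 2.38 and 2.01 on the log2 scale for numbers 1, 2 and 3, and the difference in Mreg was −0.60, −0.40 and −0.29.

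The difference between the LPS responses of Fcgrt was itself called (1.93 ± 0.42 SE, 95% interval 1.06 to 2.79, adjusted p = 7e-04 in limma). Fcgrt was the 1 of 6 genes called higher in this test, against 18.5% of all genes higher and 16.5% lower, so the count lay near the share of all genes. It stayed called with each array left out in turn (1.65 to 2.22). B2m rose with LPS in both systems, 2.26-fold in Mreg (adjusted p = 5e-07) and 1.67-fold in the macrophages (adjusted p = 3.5e-04).

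**Figure D3:**
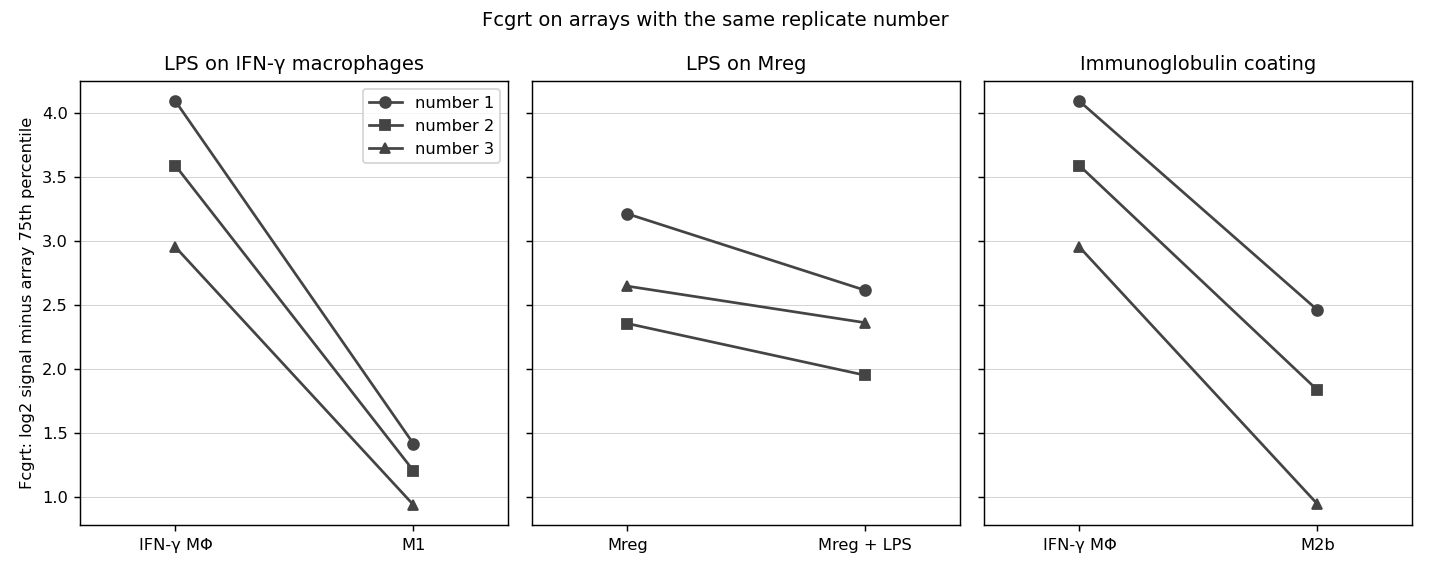
Fcgrt is plotted as its level, in log2 units relative to the array's 75th percentile, with lines joining arrays of the same replicate number, for LPS on IFN-γ macrophages, LPS on Mreg and the immunoglobulin coating. All 3 lines fall steeply in the first and last panels, by 2.01 to 2.67 and by 1.63 to 2.00, and less in the middle one.

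Among the activating receptors, Fcgr4 read 5.80, 5.67 and 5.49 in M1, just below the 6.43, 6.33 and 6.09 of IFNg_Mphi. The 1.55-fold fall (log2 −0.63 ± 0.26 SE, adjusted p = 0.043 in limma) lost its call under 8 of 17 alternatives, with an adjusted p of 0.055 with the slide as a random block and of up to 0.13 with one array left out. Fcgr1 differed by 0.60 ± 0.27 in Mreg (adjusted p = 0.062) and by 0.39 ± 0.27 in the macrophages (adjusted p = 0.24), and its arrays did not overlap in either system. In Mreg, Fcgr1 was called higher with slides as random blocks (adjusted p = 0.046), on scan day 1 (0.89, adjusted p = 0.021), without Mreg 1 (0.75, adjusted p = 0.041) and without Mreg_LPS 1 (0.75, adjusted p = 0.043). Fcgr3 differed by −0.035 ± 0.16 (adjusted p = 0.87) and −0.099 ± 0.16 (adjusted p = 0.63). Under quantile normalization Fcgr3 was called lower in both, by −0.70 in Mreg (adjusted p = 1.5e-05) and −0.47 in the macrophages (adjusted p = 0.0016), and Fcgr1 turned to −0.10 and −0.18, uncalled.

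IL-4 and dexamethasone were each set against M0, the same control as for IFN-γ in M-CSF macrophages, so these comparisons share their control arrays. Both raised Fcgr2b, IL-4 lowered Fcgr1, and dexamethasone raised Fcgr3, Fcgr4 and Fcgrt. With IL-4, 1 of 6 genes was higher, against 6.75% of all genes, and 1 lower, against 5.79%. With dexamethasone, 4 were higher, against 9.93%, and 0 lower, against 10.7%.

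In M2a, Fcgr2b read 4.29, 4.03 and 4.28, all above the 2.17, 1.66 and 1.76 of M0, a 5.06-fold rise (log2 2.34 ± 0.62 SE, adjusted p = 0.012 in limma). Fcgr1 read 5.93, 5.84 and 5.78 in M2a, all below the 6.97, 7.16 and 7.07 of M0, a 2.33-fold fall (−1.22 ± 0.27, adjusted p = 0.003). Both calls were kept under all 17 alternatives. The dendritic cell marker sum was 6.88 to 7.81 in M2a against 4.77 to 5.72 in M0, without overlap. Lower in M2a, also without overlap, was the Ly6C-high monocyte sum (0.79 to 2.23 against 3.13 to 3.51). So were the B cell sum (−1.62 to −1.23 against 0.004 to 0.077) and the T and NK cell sum (−2.64 to −2.40 against −2.30 to −2.11). The neutrophil sums and the mast cell and basophil sums overlapped. The part of these cells in the IL-4 differences was not tested. Fcgr3 (0.13 ± 0.16), Fcgr4 (−0.12 ± 0.26), Fcer1g (−0.15 ± 0.18) and Fcgrt (−0.57 ± 0.30) did not pass.

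Dexamethasone gave the largest Fcgr3 difference of these comparisons. Fcgr3 read 7.32, 7.48 and 7.22 in M2c, a 2.19-fold rise over M0 (log2 1.13 ± 0.16 SE, adjusted p = 8.2e-06 in limma), and its second probe rose by 1.25 ± 0.16 (adjusted p = 2.6e-06). Fcgr4 read 5.01, 4.93 and 4.94, a 2.36-fold rise (1.24 ± 0.26, adjusted p = 8.7e-04). Both receptors thus rose without IFN-γ in the dish, and in neither did the arrays overlap with M0. The Ly6C-high monocyte marker sum was 5.71 to 6.28 in M2c against 3.13 to 3.51 in M0, and the dendritic cell sum 2.72 to 4.08 against 4.77 to 5.72. Their part in the dexamethasone differences was not tested.

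Fcgrt read 4.51, 4.18 and 3.94 in M2c, a 3.86-fold rise (log2 1.95 ± 0.30 SE, adjusted p = 2.5e-05 in limma). Fcgr2b read 3.81, 3.50 and 3.53, a 3.36-fold rise (1.75 ± 0.62, adjusted p = 0.047). Its groups did not overlap, but the call was lost with any one of M0 1 (adjusted p = 0.072), M0 2 (0.12), M0 3 (0.11), M2c 1 (0.12), M2c 2 (0.09) or M2c 3 (0.095) left out and under 8 of 17 alternatives in all. Over the alternatives the adjusted p of Fcgr2b in limma ran from 0.0016 to 0.12. The SD of Fcgr2b was 0.27 in M0 and 0.17 in M2c, against 0.80 pooled over all groups. Fcgr1 (−0.12 ± 0.27, adjusted p = 0.84) and Fcer1g (−0.29 ± 0.18, adjusted p = 0.29) did not pass, nor did B2m (9.2e-05 ± 0.16, adjusted p = 1).

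M2b tested what a bed of immobilised human immunoglobulin, the ligand of these receptors, does in the presence of IFN-γ. IFNg_Mphi was the control, as it was for M1 and Mo-DC. Only Fcgrt passed among the 6 genes, as 1 of 6 lower, against 1.78% of all genes, and 0 were higher, against 2.16%. With the replicate number as a block, 1103 instead of 694 genes were called (6.26% in both directions together), and the call on each of the 6 genes was kept.

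Fcgrt read 2.46, 1.84 and 0.95 in M2b against 4.09, 3.59 and 2.95 in IFNg_Mphi. The groups did not overlap, and within each number, on one slide, M2b was lower, by −1.63, −1.75 and −2.00. The fall was 3.47-fold (log2 −1.79 ± 0.30 SE, adjusted p = 6.1e-04 in limma). With only these 2 groups in the fit the adjusted p was 0.11, and no other alternative ended the call. B2m differed by −0.22 ± 0.16 (adjusted p = 0.57).

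None of the other 5 genes passed. Fcgr2b read −1.29, −1.80 and −1.58 in M2b, all below the 0.05, −0.80 and −0.18 of IFNg_Mphi, but the difference did not pass (log2 −1.24 ± 0.62 SE, 95% interval −2.53 to 0.040, adjusted p = 0.35 in limma). The SD of Fcgr2b was 0.26 in M2b and 0.44 in IFNg_Mphi, against 0.80 pooled over all groups. Fcgr4 read 6.07, 5.86 and 5.14, also all below its control (−0.59 ± 0.26, adjusted p = 0.24). Fcgr1 (−0.041 ± 0.27, interval −0.60 to 0.52), Fcgr3 (−0.26 ± 0.16, interval −0.59 to 0.063) and Fcer1g (−0.17 ± 0.18, interval −0.53 to 0.19) overlapped with the control. A change in Fcgr1 of more than 0.60 on the log2 scale in either direction lay outside its interval. The Ly6C-high monocyte marker sum was 6.44 to 7.04 in M2b against 5.68 to 5.96 in IFNg_Mphi, and its part in these values was not tested.

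The path from monocytes to macrophages was read from M0 against the monocytes. Fcgr4, Fcgr1, Fcgr3 and Fcer1g rose and Fcgr2b fell. Of the 6 genes, 4 were higher, against 30.2% of all genes, and 1 lower, against 33.2%. The neutrophil and mast cell marker sums given above were higher in the monocytes in every array. So were the B cell sum (3 of 6 tested; 1.75 to 1.86 against 0.0040 to 0.077 in M0), the T and NK cell sum (4 of 5; −1.13 to −0.25 against −2.30 to −2.11) and the Ly6C-high monocyte sum (8.79 to 9.01 against 3.13 to 3.51). The other B cell markers, Cd79a, Pax5 and Blk, have probes but were above background on no monocyte array. The same held for Ncr1 of the T and NK cell markers. B cells express Fcgr2b, and the part of these cells in the differences was not tested.

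Fcgr4 read 1.21, 0.93 and 1.49 in the monocytes and at least 3.44 in M0, a 5.70-fold rise (log2 2.51 ± 0.26 SE, adjusted p = 2.4e-09 in limma). Fcgr1 read 5.60, 4.00 and 4.86 in the monocytes, more spread than in any other group, and rose 4.75-fold (2.25 ± 0.27, adjusted p = 5.7e-08). Within the numbers the rise of Fcgr1 ran from 1.37 to 3.16. No array of M0 overlapped with the monocytes for either gene.

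Fcgr3 read 5.10, 5.18 and 5.42 in the monocytes and rose 1.96-fold (log2 0.97 ± 0.16 SE, adjusted p = 6e-06 in limma), but its second probe differed by 0.24 ± 0.16 (adjusted p = 0.2). Fcer1g rose 1.59-fold (0.67 ± 0.18, adjusted p = 0.0016). Fcgr2b read 3.74, 3.75 and 4.12 in the monocytes and was 4.03-fold lower in M0 (−2.01 ± 0.62, adjusted p = 0.0065). Fcgrt did not pass (0.47 ± 0.30, adjusted p = 0.17).

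**Figure D4:**
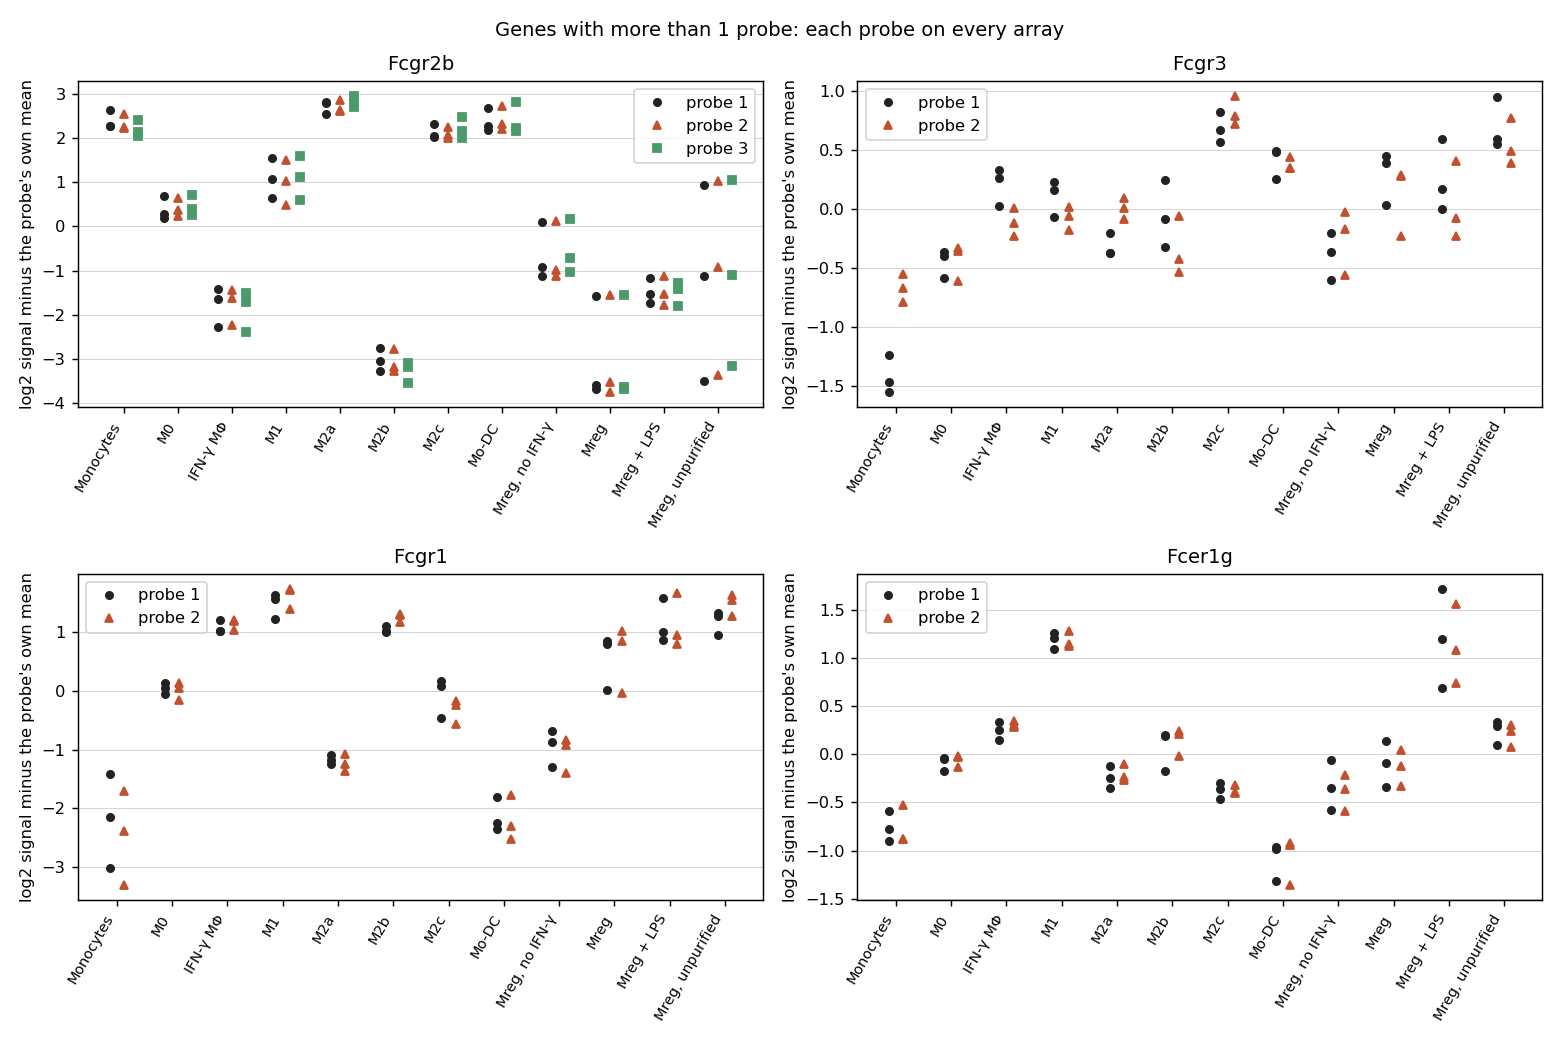
For the 4 genes with more than 1 probe, each probe's log2 signal minus its own mean over the 36 arrays is plotted by group; symbols are probes and each point is 1 array. The 3 Fcgr2b probes move together, whereas from the monocytes to M0 the first Fcgr3 probe rises by 0.97 and the second differs by 0.24.

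Mo-DC received the same IFN-γ dose as IFNg_Mphi but were grown with 20 ng/ml GM-CSF and 20 ng/ml IL-4 in place of 20 ng/ml M-CSF. Growth factor, IL-4 and cell type therefore cannot be told apart in this comparison. Mo-DC carried a different receptor set. Fcgr2b was higher, and Fcgr1, Fcgr4, Fcer1g and Fcgrt were lower. This was 1 of 6 genes higher, against 22.4% of all genes, and 4 lower, against 25.1%. Their dendritic cell marker sum (5 of 5 tested) lay between 8.01 and 8.13, against 2.77 to 4.33 in IFNg_Mphi. Of the 5 markers, 4 were above background on all Mo-DC arrays. Cd209a was above background on no array of Mo-DC or of any other cultured group, but was so on all monocyte arrays.

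Fcgr1 read 5.21, 4.76 and 4.67 in Mo-DC and was 9.34-fold lower than in IFNg_Mphi (log2 −3.22 ± 0.27 SE, adjusted p = 2.7e-10 in limma), although both groups had IFN-γ. Fcgr2b read 3.67, 3.75 and 4.15 and was 18-fold higher (4.17 ± 0.62, adjusted p = 3.8e-06). These were the largest differences of either gene in the 12 comparisons of groups. The arrays did not overlap for either.

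Fcgr4 read 4.66, 3.98 and 5.07 in Mo-DC, a 3.28-fold lower level (log2 −1.71 ± 0.26 SE, adjusted p = 4e-06 in limma). Fcer1g was 2.51-fold lower (−1.33 ± 0.18, adjusted p = 5.9e-07) and Fcgrt 3.09-fold lower (−1.63 ± 0.30, adjusted p = 5.6e-05). Fcgr3 did not pass on its first probe (0.20 ± 0.16, adjusted p = 0.32) and was called higher on its second (0.49 ± 0.16, adjusted p = 0.014). Fcgr3 was thus the activating receptor that was not lower in Mo-DC.

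Mreg and IFNg_Mphi differ in serum and M-CSF dose but both had IFN-γ. Fcgr4 and Fcgrt were lower in Mreg, 2 of 6 genes, against 14.0% of all genes lower, and 0 were higher, against 14.0%. Fcgr4 read 5.89, 5.00 and 5.30 in Mreg, all below the 6.43, 6.33 and 6.09 of IFNg_Mphi, a 1.85-fold lower level (log2 −0.89 ± 0.26 SE, adjusted p = 0.01 in limma, and 0.086 without Mreg 2). Fcgrt was 1.75-fold lower (−0.81 ± 0.30, adjusted p = 0.044), its arrays overlapped, and the call was lost under 8 of 17 alternatives, among them the omission of IFNg_Mphi 1 (adjusted p = 0.25), IFNg_Mphi 2 (0.1), Mreg 2 (0.21) or Mreg 3 (0.11).

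Fcgr1 (log2 −0.53 ± 0.27 SE, adjusted p = 0.16 in limma), Fcgr2b (−1.16 ± 0.62, adjusted p = 0.18), Fcer1g (−0.34 ± 0.18, adjusted p = 0.17) and Fcgr3 (0.080 ± 0.16, adjusted p = 0.77) did not pass. Fcgr2b was called lower in Mreg without Mreg 2 (−1.85, adjusted p = 0.041) and without the Mreg_unpurified group in the fit (−1.16, adjusted p = 0.024). Fcer1g was called lower by its second probe (−0.45, adjusted p = 0.028) and, on the first, under quantile normalization (−0.47, adjusted p = 0.0078) and in the series table (−0.47, adjusted p = 0.0074). Without IFN-γ, the same cultures (Mreg_noIFNg against M0) differed in Fcgr1, 1 of 6 genes lower, against 13.7% of all genes, with 0 higher, against 17.2%. Fcgr1 was 1.99-fold lower in Mreg_noIFNg (−0.99 ± 0.27, adjusted p = 0.0064), without overlap. These groups lay on different slides, so slide and group cannot be told apart. The Ly6C-high monocyte marker sum was 0.65 to 2.66 in Mreg against 5.68 to 5.96 in IFNg_Mphi, and the dendritic cell sum 4.61 to 5.92 against 2.77 to 4.33. Their part in the differences was not tested.

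Mreg_unpurified and Mreg share their treatment and differ in the cells they began from. In limma, 0 of 6 genes passed, against 6.67% of all genes higher and 5.36% lower. At an unadjusted p under 0.05 in limma there were 3 of 6. The share of all genes under that unadjusted threshold is not given for this fit. It held 3045 of 17606 genes with normexp background correction and 5959 with slides as random blocks. With slides as random blocks Fcgr2b (adjusted p = 0.018) and Fcgr3 (adjusted p = 0.047) were called higher in Mreg_unpurified, as were the second Fcgr1 probe (0.87, adjusted p = 0.049) and the third Fcgr2b probe (1.90, adjusted p = 0.042) when each probe was fitted. Fcgr2b read −2.02, 2.43 and 0.36 in Mreg_unpurified against −2.20, −0.10 and −2.12 in Mreg (log2 1.73 ± 0.62 SE, adjusted p = 0.07). The groups overlapped widely.

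The number 2 array of Mreg_unpurified stood apart. It had the highest Fcgr2b of all Mreg arrays, a summed neutrophil marker level of 0.84 against −3.80 and −3.44 on the other 2 arrays, and a mast cell and basophil sum of 0.096 against −4.67 and −2.59. Without that array the Fcgr2b difference was 0.64 (adjusted p = 0.53). Without Mreg_unpurified 1 it was 2.87 (adjusted p = 6.1e-04), and without Mreg 2 it was 2.42 (adjusted p = 0.02). Number 2 also had the highest dendritic cell marker sum within each of the 4 Mreg groups, and the highest Fcgr2b within each. The part of these cells in the Fcgr2b values was not tested.

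The activating receptors were also read relative to Fcgr2b, as the difference of the log2 signals on one array. Only changes of this difference have a meaning, since the probes differ. With IFN-γ it was larger for Fcgr4, Fcgr1 and Fcgr3, by 4.26, 3.79 and 2.98 in the Mreg cultures and by 4.74, 3.21 and 2.83 in the M-CSF macrophages. With LPS in the macrophages it differed by −3.51, −2.48 and −2.97, and with IL-4 by −2.46, −3.56 and −2.21. None of these groups overlapped, and each had an exact two-sided permutation p of 0.1, the smallest that 3 against 3 arrays allow.

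The same measure in Mo-DC was lower than in IFNg_Mphi by −5.88 for Fcgr4, −7.39 for Fcgr1 and −3.97 for Fcgr3, without overlap. It was larger in M0 than in the monocytes by 4.52, 4.26 and 2.98. On the immunoglobulin coating it differed by 1.20 for Fcgr1 and 0.98 for Fcgr3, without overlap (exact permutation p = 0.1 each), and by 0.65 for Fcgr4, with overlap (p = 0.2). None of these receptors, nor Fcgr2b (−1.24), was called there on its own. Dexamethasone, which raised both Fcgr2b and Fcgr4, left groups without overlap for Fcgr1 alone of the 3 (−1.87). In Mreg given LPS the changes (−1.27, −0.87 and −1.51) overlapped with Mreg. In all, 22 of 36 such changes had groups that did not overlap. That share was not computed for other pairs of genes. The changes are also not independent, since each contains Fcgr2b and several share control arrays.

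**Figure D5:**
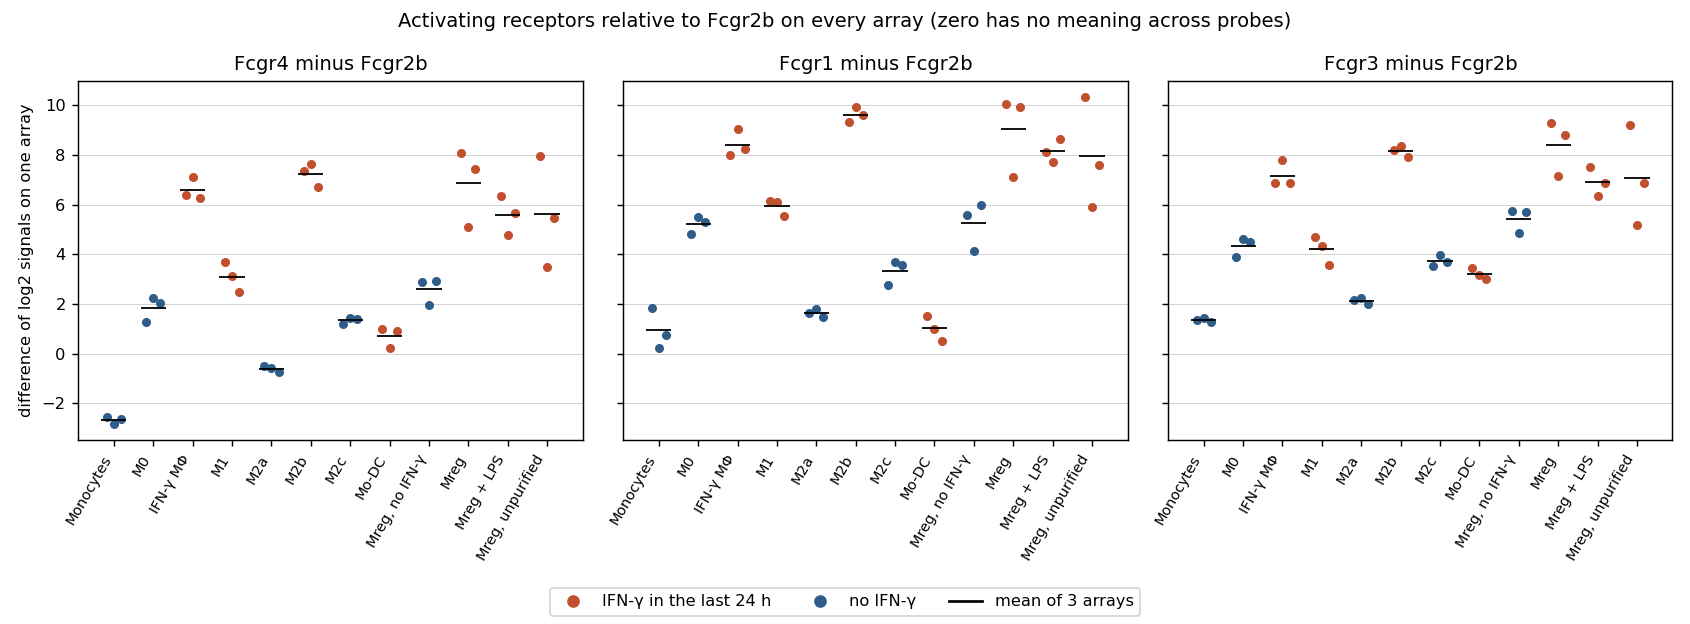
The log2 signal of Fcgr4, Fcgr1 or Fcgr3 minus that of Fcgr2b on the same array is plotted for the 12 groups; points are arrays, bars are means of 3, and only differences between groups have a meaning. For Fcgr4 the IFN-γ groups other than M1 and Mo-DC lie at or above 3.48, and M2a and the monocytes lie below 0.

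Other genes of the pathway were followed as 4 lists, holding activating signalling genes, inhibitory receptors and signalling genes, genes of actin-driven uptake, and further Fc receptors. Of 19 measured activating genes, 5 were higher and 1 lower with IFN-γ in the Mreg cultures, against 9.51% and 10.9% of all genes, and 8 were higher and 2 lower in the M-CSF macrophages, against 11.1% in each direction. Blnk, an adaptor of Syk signalling, fell in both, by 2.01 and 2.28 on the log2 scale, while Lyn, a kinase that phosphorylates the receptor motifs, rose by 1.25 and Lcp2, another adaptor, by 1.39 in the macrophages. The median difference of the list was 0.11 and 0.30, against −0.064 and −0.012 for all genes. Trim21, the cytosolic IgG receptor, rose by 2.08 and 1.51, whereas Fcrls fell by 2.60 in the macrophages.

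Of 13 inhibitory genes, 1 was higher and 1 lower with IFN-γ in the Mreg cultures and 2 were higher and 3 lower in the macrophages. Of 13 uptake genes, 1 was higher and 2 lower, and 2 higher and 1 lower. The shares of all genes are those just given, and with 13 genes a list these small counts are not read as a result. In Mreg against IFNg_Mphi, 7 of 13 inhibitory genes were lower and 2 higher, against 14.0% of all genes in each direction. Ptpn6, which encodes the phosphatase SHP-1, was lower by −1.32 there, and the inhibitory receptor gene Lilrb4a was higher by 1.25. Lyn was lower by −1.16, and in that comparison 6 of 19 activating genes were lower and 3 higher.

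With LPS, 9 of 19 activating genes were higher and 4 lower in Mreg, against 31.9% and 25.5% of all genes, and 9 were higher and 6 lower in the macrophages, against 27.9% and 23.3%. Blnk rose in both, by 2.20 and 1.92, the kinase gene Fyn fell in both, by 1.74 and 1.96, and Syk rose by 1.89 in the macrophages. In Mreg, Dok2, an inhibitory adaptor, fell by 3.44 and Plcg2, a phospholipase downstream of Syk, by 1.35. Pirb, an inhibitory receptor gene, rose by 1.88 in Mreg and 1.52 in the macrophages. Against the same shares, 6 of 13 inhibitory genes were higher and 5 lower in Mreg, and 3 were higher and 3 lower in the macrophages. Of the 13 uptake genes 2 were higher and 6 lower in Mreg, where Coro1a, which binds actin, fell by 2.25 and Rac2, a small GTPase, rose by 1.84, and 4 were higher and 2 lower in the macrophages.

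On the immunoglobulin coating, 0 of 19 activating, 0 of 13 uptake and 0 of 7 other Fc receptor genes were called in limma. Of all genes, 2.16% were called higher and 1.78% lower, so these counts lay near the shares. Of the lists, 3, 3 and 1 genes had an unadjusted p under 0.05 in limma. The share of all genes under that threshold is not given for this fit. It held 1657 of 17606 genes with normexp background correction and 3516 with slides as random blocks. Of the 13 inhibitory genes Ptpn6 was called, lower by −0.55 (adjusted p = 0.0043). Dexamethasone left 5 of 19 activating genes lower, against 10.7% of all genes, and 1 higher, against 9.93%, Fyn falling by 1.15 and Fgr by 1.13. With IL-4, 2 activating genes, Fyn (2.14-fold) and Prkcd (2.08-fold), were higher, against 6.75%, and 1 lower, against 5.79%. From monocytes to M0, 12 of 19 activating genes were lower, against 33.2%, and 5 higher, against 30.2%, with Fgr 26.8-fold lower and Blnk 53.4-fold higher. In Mo-DC 10 of 19 were lower, against 25.1%, and 5 higher, against 22.4%, with Fgr higher by 2.57, Vav3 lower by −1.96 and Blnk higher by 1.96. The inhibitory genes moved too, against the same shares. Of 13, 5 were lower and 4 higher with dexamethasone, and 1 lower and 0 higher with IL-4. From monocytes to M0, 4 were lower and 5 higher, and in Mo-DC 7 were lower and 1 higher.

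For each receptor the genes with the most alike group means were listed among 8454 genes that were well above background on all arrays and spanned at least 1 on the log2 scale. They were Prdx4 (r = 0.93), Ppt2 (0.91) and Slfn8 (0.91) for Fcgr1, Cpq (0.97), Sumf1 (0.96) and Stard3nl (0.93) for Fcgr4, and Agtrap (0.94), Tm2d2 (0.93) and Endog (0.92) for Fcgr3. For Fcgr2b they were Fbll1 (0.89), Mob3b (0.88) and Ak8 (0.86), for Fcer1g Scnm1 (0.96), Fer (0.95) and Psmc2 (0.95), and for Fcgrt Dguok (0.90), Naprt (0.89) and Paox (0.85). Each r is over 12 group means and was picked as the highest of many, so it is a description only.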

How the data were processed

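RNA was hybridized to 36 1-colour Agilent arrays. Per the file headers, Feature Extraction 10.5.1.1 wrote a background-corrected intensity for every spot. The authors also deposited a series table of log2 values, which followed the log2 intensities on each array (r of 0.997 or more, column medians 4.33 to 4.38). How it was scaled is not given in the sources used here.

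Log2 intensities were centred on each array's 75th percentile, outlier spots were dropped and repeats averaged. A probe needed a flag of well above background on 3 arrays and a value on 30 (26476 probes), and the brightest stood for its gene. Group means were estimated in limma 3.58.1 (R 4.3.3) from all 36 arrays together, and p-values were adjusted by Benjamini-Hochberg over all genes within each of 14 comparisons, with 0.05 as the threshold. The fit was tested on simulated data. Figures were made in Python 3.11.15 (matplotlib 3.10.9).

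The members and gene lists were chosen with earlier results of these data known. Named list genes are, per list and comparison, up to 3 called genes with the largest log2 difference of at least 1; Ptpn6 on the coating was named after its value was seen. Alternatives changed the background (normexp, offset 50), the scaling (quantile), the dim-probe filter (none, or 18 arrays), the probe summary (mean), the source (series table), the block (replicate number, or slide at random), the groups in the fit, and each array in turn. A single scan day and a fit lacking Mreg_unpurified were added after seeing the data. Whether replicate numbers pair samples was checked from the correlation of deviations from group means. All 3 pairs passed 0.1 (lowest 0.11) for both IFN-γ and both LPS responses, IL-4, dexamethasone and the coating, and not for the other comparisons of groups.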

Additional observations from a re-analysis of the deposited data

Results flagged for a closer look

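The LPS response of Fcgrt differed between the culture systems when that difference was tested itself. It was 1.925 on the log2 scale (Mreg_LPS minus Mreg, less M1 minus IFNg_Mphi; adjusted p = 7e-04 in limma's interaction test). In that test 18.5% of all genes were called higher and 16.5% lower, so such a difference was common among genes. Fcgrt fell by 2.35 in the M-CSF macrophages and differed by −0.43 in Mreg. Fcgrt was already lower in Mreg than in IFNg_Mphi before LPS, by −0.81, and on the log2 scale the levels reached with LPS were 2.31 in Mreg_LPS and 1.19 in M1. M1 and IFNg_Mphi lay on different slides, while Mreg and Mreg_LPS shared them. When slides were treated as random blocks, the adjusted p in limma was 1.8e-04.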

How the results depend on the processing

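The counts of called members (of 6) moved by more than 1.5 times in these cases. In fits of the compared groups alone, IFN-γ in the Mreg cultures gave 2, Mreg against IFNg_Mphi 1, LPS on Mreg 1 and the coating 0 (2 of 6 with an unadjusted p under 0.05 when all groups were fitted, a threshold for which the share of all genes is not given). Normexp and no filter each gave 1 for Mreg against IFNg_Mphi and 1 for LPS on Mreg. Quantile normalization, the series table and a fit without Mreg_unpurified each gave 2 for Mreg_noIFNg against M0, and the last also 2 for the difference of LPS responses. Scan day 1 gave 1 for Mreg against IFNg_Mphi and 1 for unsorted against sorted Mreg, and the slide as a random block gave 2 for the latter. With 1 array left out, counts ran from 1 to 2 for Mreg against IFNg_Mphi and for LPS on Mreg, from 1 to 3 for the difference of LPS responses and from 0 to 1 for unsorted Mreg.

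Of 396 values of called differences under the settings that kept all arrays or dropped a group or scan day, 378 kept their call, 18 lost it and 0 reversed. With 1 array left out, 197 of 222 kept it, 25 lost it and 0 reversed. The replicate block changed 0 of 84 member calls and reversed 0. It raised the count of all genes called from 694 to 1103 for the coating, from 290 to 470 for the difference of IFN-γ responses and from 2118 to 3382 for unsorted Mreg, whose numbers are not shown to pair samples. All 35 called differences had one sign in all 3 numbers. They were called from these same arrays, so that agreement gives no separate support. The share for other called genes is not given, and the numbers are not shown to pair samples in every comparison.

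Reversals were found for uncalled differences only; their cause was not tested. For the difference of IFN-γ responses, normexp gave 0.041 for Fcgr2b and −0.073 for Fcgr3, and scan day 1 gave 0.13 for Fcgr2b; with 1 array left out the ranges were −0.81 to 0.25 (Fcgr2b), −0.083 to 0.15 (Fcgr3) and −0.22 to 0.043 (Fcer1g). For Mreg against IFNg_Mphi, Fcgr3 ran from −0.011 to 0.21. For Mreg_noIFNg against M0, Fcgr3 was −0.11 under quantile normalization and the series table and −0.021 on scan day 1 (left out: −0.038 to 0.16), and Fcgrt −0.019, −0.018 and −0.038 (−0.093 to 0.16). For LPS on Mreg, quantile normalization and the series table gave −0.10 for Fcgr1 and −0.35 for Fcgr4, and the ranges were −0.21 to 0.092 (Fcgr3) and −0.061 to 0.45 (Fcgr4). For LPS on macrophages, Fcgr1 was −0.18 under quantile normalization and −0.19 in the series table. For the difference of LPS responses, Fcgr3 was −0.23 under both, −0.026 with the mean of probes and −0.031 on scan day 1 (−0.11 to 0.19), and Fcgr1 ran from −0.060 to 0.36. With IL-4, normexp gave 0.082 for Fcgr4 and 0.047 for Fcer1g, and quantile normalization and the series table −0.015 for Fcgr3. With dexamethasone, Fcgr1 was 0.092 under normexp and 0.027 on scan day 1 (−0.24 to 0.075). On the coating, Fcgr1 was 0.033 under quantile normalization, 0.035 with the mean of probes and 0.022 in the series table (−0.075 to 0.022).

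Counts over all genes also moved. Normexp gave 2238 instead of 3597 for IFN-γ in the Mreg cultures, 38 instead of 290 for the difference of IFN-γ responses, 3175 instead of 4930 for Mreg against IFNg_Mphi, 3096 instead of 5440 for Mreg_noIFNg against M0, 3873 instead of 6154 for the difference of LPS responses, 275 instead of 694 for the coating and 780 instead of 2118 for unsorted Mreg. Scan day 1 gave 1988, 71, 958 (of 2209 with IL-4) and 341 for IFN-γ in Mreg, its difference, IL-4 and the coating. Only the compared groups gave 2371, 567, 1465 and 425 for the same, and 0 for unsorted Mreg (3104 unadjusted). No filter gave 180 for the difference of IFN-γ responses and 13876 instead of 9014 for LPS on macrophages. The slide as a random block gave 1297 for the coating and 3579 for unsorted Mreg. Quantile normalization moved the share of higher calls from 55.7 to 45.5% for LPS on Mreg, from 53.8 to 43.6% for IL-4 and from 55.4 to 42.7% for unsorted Mreg, and the median of all genes from 0.17 to −0.016 and from 0.12 to −0.0066 for LPS on Mreg and on macrophages.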
